A study of Mus musculus with 8 samples.

Results

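Connexins are the membrane proteins from which gap junction channels are built. Their mRNAs were measured here for 5 genes, Gja1, Gja4, Gja5, Gjb2 and Gjc1, which were picked by name from the 27179 genes of a raw count table and all of which passed the filter on low counts. The table holds bulk RNA-seq of 8 libraries, 4 of QZ1-hi cells (condition QZ+ in the sample labels) and 4 of QZ1-lo cells (condition QZ-). Both populations came from lungs of female C57BL/6J mice (C57BL/6 in the labels) with lung tumors driven by a rearrangement of Eml4 and Alk. The mice were 18 to 22 weeks old and 11 to 12 weeks after tumor induction. Induction was done with an adenovirus encoding Cas9 and guide RNAs delivered into the lung. Every mouse had received 4.5 nmol of QZ1-(PEG2K) by tail vein 2 h before the lungs were taken, so neither population is a control without tumors or without the probe. QZ1 is a quenched fluorescent probe whose Cy5 signal appears once proteases cut its linker. Viable cells lacking CD45 and CD11b were sorted by QZ1 signal gated against EpCAM, with at least 100000 cells per population, and each population is a mixture of lung cell types, from tumors and from the lung around them, whose purity was not measured. The labels list 4 libraries of each population as separate samples and do not say which QZ1-hi and QZ1-lo libraries share a mouse.

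A connexin spans the membrane repeatedly, and connexins assemble into a hexamer that docks with a hexamer of the neighboring cell, so that ions and small metabolites pass directly between the cells. Different family members open to different molecules and are made by different cells. In lung and vessel walls, Cx37 (Gja4) and Cx40 (Gja5) are known from endothelium, above all of arteries. Cx45 (Gjc1) is known from smooth muscle and pericytes. Cx43 (Gja1) is known from a wide range of cells, and Cx26 (Gjb2) from epithelia. On GRCm38.p6 the genes lie on chromosome 10, 56377300 to 56390419 (Gja1, plus strand), chromosome 4, 127311420 to 127314039 (Gja4, minus strand), chromosome 3, 97032402 to 97053634 (Gja5, plus strand), chromosome 14, 57098602 to 57104702 (Gjb2, minus strand) and chromosome 11, 102799477 to 102819686 (Gjc1, minus strand). None of the 5 shares exonic bases with another gene of the GENCODE annotation on either strand. No 50-base stretch of their transcripts occurs in a transcript of another gene, except for 0.0749% of the stretches of Gjc1.

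Gja4 and Gjc1 were higher in the QZ1-hi population, and Gja5 had a difference of the same sign that did not pass the threshold. Gja1 and Gjb2 did not pass the threshold either, with estimates below 0. Values are CPM, that is reads scaled to the TMM-adjusted size of each library, and a positive log2 fold change means a higher level in QZ1-hi. Tests are edgeR's quasi-likelihood test, with p-values adjusted over all 15583 genes tested. Of the 5 genes, 2 were called higher and 0 lower at an adjusted p under 0.05, where 9.88% of all genes tested were called higher and 8.21% lower. For 3 of the 5 genes the QZ1-hi libraries all lay above the QZ1-lo libraries, as was true of 11.9% of all genes tested. Since the populations are mixtures, more cells of a type and more RNA of a gene per cell cannot be told apart in any of these values.

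**Figure D1:**
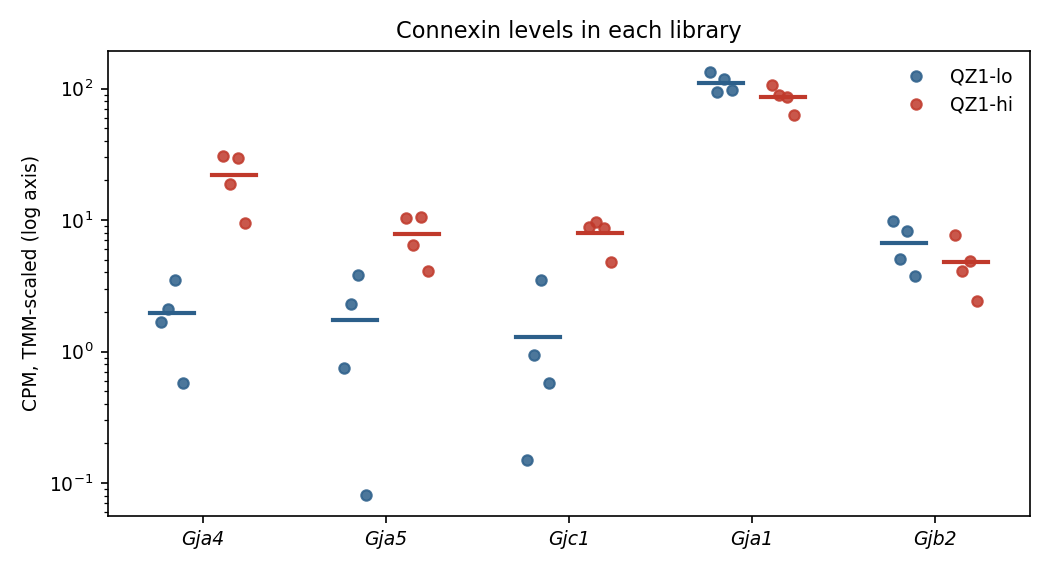
TMM-scaled CPM (log axis) of the 5 connexin genes, with 1 point per library in QZ1-lo (blue) and QZ1-hi (red) and a bar at the mean of 4 libraries. The populations do not overlap for Gja4, Gja5 and Gjc1 and overlap for Gja1 and Gjb2, and heights of different genes are not comparable here because CPM is not divided by gene length.

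Gja4 encodes Cx37, which joins endothelial cells to one another and to the muscle layer beneath them. Its CPM was 30.6, 18.8, 29.5 and 9.48 in QZ1-hi libraries 1 to 4 and 1.67, 2.12, 3.47 and 0.573 in QZ1-lo libraries 1 to 4. The lowest QZ1-hi library, number 4, was thus still above the highest QZ1-lo library, number 3. The population means were 22.1 ± 9.94 CPM (SD, n = 4) and 1.96 ± 1.20 CPM (SD, n = 4). The log2 fold change was 3.49 (SE 0.50, edgeR adjusted p = 0.000853), a fold of 11.2, which ranked 151 among all genes tested. The estimate lay between 3.19 and 3.92 when each library was left out in turn, and Gja4 was called every time.

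Gja5 encodes Cx40, the partner of Cx37 in arterial endothelium, and was counted less often. Its CPM was 10.3, 6.47, 10.5 and 4.11 in QZ1-hi and 0.745, 2.32, 3.8 and 0.0819 in QZ1-lo, the last value being 2 reads. As for Gja4, QZ1-hi library 4 was the lowest of its population and QZ1-lo library 3 the highest of its own, and they did not cross. Means were 7.85 ± 3.11 CPM (SD, n = 4) and 1.74 ± 1.66 CPM (SD, n = 4), with a log2 fold change of 2.18 (SE 0.73, edgeR adjusted p = 0.0631). The spread within QZ1-lo was nearly as large as the QZ1-lo mean itself. The gene was called by DESeq2's Wald test (2.17, adjusted p = 0.0115) and by limma-voom (3.28, adjusted p = 0.0123), and in edgeR without QZ1-lo library 3 (2.91, adjusted p = 0.0241) or without QZ1-lo library 4 (1.79, adjusted p = 0.0454).

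The starts of Gja4 and Gja5 are shown because their levels ranked the QZ1-lo libraries in the same order. Within QZ1-hi the order was also the same, except that libraries 1 and 3 changed places. The QZ1-lo order is not particular to these genes. The mean log2 CPM of the endothelial, arterial, lymphatic, pericyte and fibroblast lists described below ranked the QZ1-lo libraries in that order too. Shared regulation of Gja4 and Gja5 was not tested. Each line holds the 250 bases before the RefSeq start on GRCm38.p6, for Gja4 chr4:127314040-127314289 on the minus strand and for Gja5 chr3:97032152-97032401 on the plus strand. Capitals mark matches, on either strand, to the ETS core, whose letters are GGAA, and to the SOX core, searched for as ACAAT. They also mark the motif of Sp factors, spelled GGGCGG, and would mark the TATA motif, which was searched for with the letters TATAAA.
Gja4: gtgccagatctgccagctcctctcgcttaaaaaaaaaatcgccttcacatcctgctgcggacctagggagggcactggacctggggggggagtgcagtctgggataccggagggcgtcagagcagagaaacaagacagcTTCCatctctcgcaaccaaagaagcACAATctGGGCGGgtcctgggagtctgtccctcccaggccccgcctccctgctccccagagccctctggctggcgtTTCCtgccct
Gja5: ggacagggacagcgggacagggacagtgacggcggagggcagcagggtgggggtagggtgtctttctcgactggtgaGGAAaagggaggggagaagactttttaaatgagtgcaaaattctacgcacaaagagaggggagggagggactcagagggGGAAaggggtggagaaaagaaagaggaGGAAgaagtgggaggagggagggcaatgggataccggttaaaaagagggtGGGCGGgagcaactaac
In Gja4 the marked GGAA letters, read there on the opposite strand, begin 111 and 10 bases before the start, the ACAAT 86 bases and the GGGCGG 79 bases before it. In Gja5 the GGAA letters begin 173, 94 and 67 bases before the start and the GGGCGG 17 bases before it. No marked letters overlap, and TATAAA is in neither window. Of 32851 promoter windows of the same length, 93.4% hold GGAA, 27.7% ACAAT, 32.7% GGGCGG and 12.4% TATAAA, so a match to GGAA is the usual case. The Gja1 window held GGAA 3 times and none of the other letters, and the Gjb2 window held GGAA once and GGGCGG 2 times. Gjc1 was not searched, because the promoter reference used here had no entry for it.

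Gjc1 encodes Cx45, found in pericytes, smooth muscle and the conduction tissue of the heart. Its CPM was 8.86, 9.73, 8.73 and 4.77 in QZ1-hi and 0.149, 0.936, 3.51 and 0.573 in QZ1-lo, where the lowest value is 5 reads. QZ1-lo library 3 stood above the other QZ1-lo libraries, and QZ1-hi library 4 was again the lowest of its population. Means were 8.02 ± 2.21 CPM (SD, n = 4) and 1.29 ± 1.51 CPM (SD, n = 4). The log2 fold change was 2.63 (SE 0.70, edgeR adjusted p = 0.0231), a fold of 6.21. The call was lost without QZ1-hi library 2 (2.51, adjusted p = 0.0545), QZ1-lo library 2 (2.51, adjusted p = 0.0656) or QZ1-lo library 4 (2.40, adjusted p = 0.0550), and without QZ1-lo library 3 the estimate was 3.89 (adjusted p = 0.00116).

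Gja1 encodes Cx43, the most widely made connexin of the body, whose tail binds scaffolds and carries many phosphorylation sites. Its CPM was 107, 89.8, 85.9 and 62.6 in QZ1-hi and 134, 94.9, 117 and 96.6 in QZ1-lo. The ranges overlapped, since QZ1-hi library 1 was above QZ1-lo libraries 2 and 4. With means of 86.3 ± 18.2 CPM (SD, n = 4) and 111 ± 18.5 CPM (SD, n = 4), the log2 fold change was -0.36 (SE 0.17, edgeR adjusted p = 0.202). Gjb2 encodes Cx26, an epithelial connexin best known from the inner ear. Its CPM was 7.71, 4.10, 4.86 and 2.44 in QZ1-hi and 9.87, 5.04, 8.29 and 3.72 in QZ1-lo, again with overlapping ranges and with library 4 lowest in each population. The log2 fold change was -0.49 (SE 0.39, edgeR adjusted p = 0.470). Neither gene was called under any alternative, and both estimates stayed below 0.

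Divided by exonic length, Gja1 was the most abundant of the 5 connexins in both populations. In QZ1-hi its level was 28.1 ± 5.93 CPM per kb (SD, n = 4), followed by Gja4 at 13.1 ± 5.90 CPM per kb, and the ranges of these neighbors did not overlap. Gjc1, Gja5 and Gjb2 followed at 2.95 ± 0.814, 2.53 ± 1.00 and 1.99 ± 0.915 CPM per kb, with overlapping ranges. In QZ1-lo, Gja1 stood at 36.0 ± 6.02 CPM per kb (SD, n = 4) and Gjb2 at 2.80 ± 1.18 CPM per kb, without overlap between them. Below it came Gja4 at 1.16 ± 0.713, Gja5 at 0.559 ± 0.536 and Gjc1 at 0.475 ± 0.556 CPM per kb. The ranges of Gjb2 and Gja4 overlapped, although Gjb2 was above Gja4 in each of the 4 libraries. The ranges of Gja4, Gja5 and Gjc1 overlapped one another, although Gja4 was above Gja5 in each of the 4 libraries.

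As a share of the summed CPM per kb of the 5 genes, Gja1 made up 51.7% to 67.7% in the QZ1-hi libraries and 82.6% to 93.7% in the QZ1-lo libraries. The shares of Gja4, Gja5 and Gjc1, the members whose CPM did not overlap between the populations, had the opposite shift. Gja4, Gja5 and Gjc1 together held 28.9% to 44.5% of the sum in QZ1-hi and 1.72% to 9.90% in QZ1-lo, and Gja4 alone held 18.7% to 32.4% and 1.01% to 4.46%. Gjb2 held 3.37% to 5.11% and 4.61% to 8.38%, which overlap. A share does not depend on the scaling between libraries, but a rise of one member lowers the shares of the rest. No test was run on the shares. The genes here, like the genes and lists of the tests elsewhere in this report, were chosen with earlier results of these data known.

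**Figure D2:**
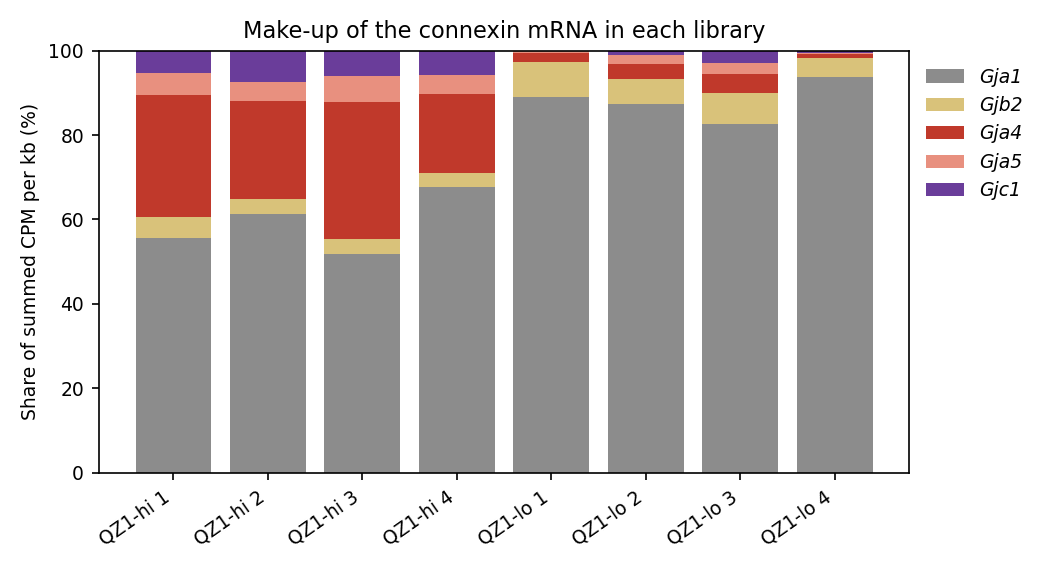
Share (%) of each of the 5 genes in their summed CPM per kb, with 1 stacked bar per library. The red and violet parts (Gja4, Gja5 and Gjc1) make up 28.9% to 44.5% of each QZ1-hi bar and 1.72% to 9.90% of each QZ1-lo bar, and gray (Gja1) fills most of every QZ1-lo bar.

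Of the other connexins, 11 genes were examined beside the 5, and 4 of them passed the filter on low counts. None of the 4 was called by edgeR, DESeq2 or limma-voom, and 0 of them had an unadjusted p under 0.05 in edgeR. Their median log2 fold change was 1.19 against 0.02 for all genes tested. They were Gjb6, the Cx30 of astrocytes and the inner ear, at 1.33 (SE 0.73), Gjb1, the Cx32 of liver and myelin, at 1.32 (SE 0.62), Gjb5 at 1.06 (SE 0.77) and Gja3, the Cx46 of the lens, at 0.66 (SE 0.53), with adjusted p from 0.185 for Gjb1 to 0.472 for Gja3 (edgeR). Each of these genes had overlapping populations. These values do not cover the whole family.

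The other 7 of these connexins were too rarely counted to be tested. Gjd4 had 0 reads in all 8 libraries. A level of 3 reads, taken as the floor, corresponds to 0.0894 to 0.179 CPM depending on the library, and covers counting error only. Gja6, Gja10, Gjc3, Gjd2, Gjd3 and Gje1 had 30 reads or fewer each over all 8 libraries. Of the pannexins, channel proteins that release ATP and resemble connexins in shape, Panx1 was tested and not called (log2 fold change -0.65, SE 0.36, adjusted p = 0.275, edgeR), and Panx2 and Panx3 were below the filter.

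**Figure D3:**
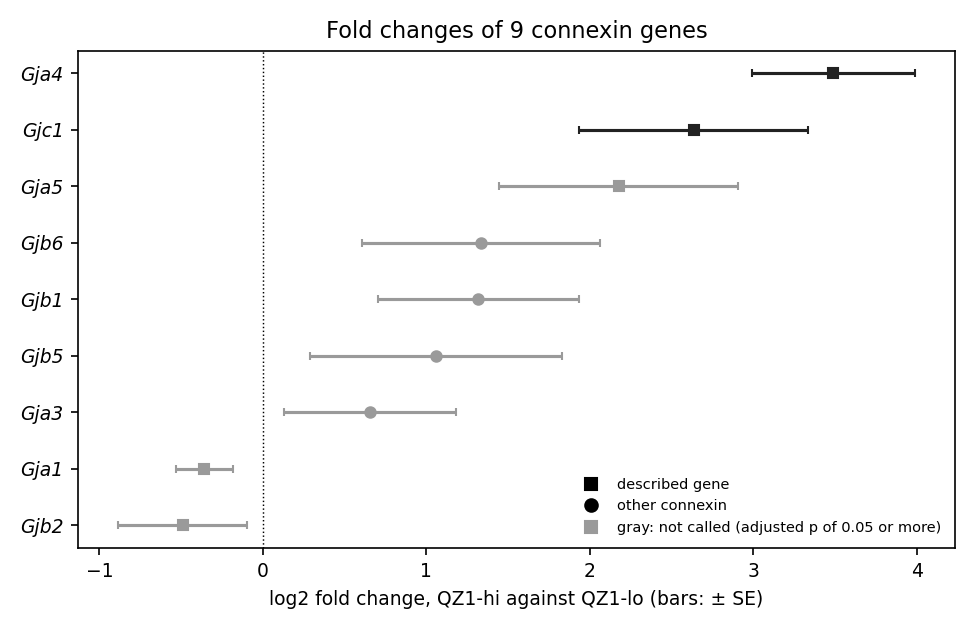
Log2 fold change of QZ1-hi against QZ1-lo (edgeR, bars are ± SE, n = 4 libraries per population) for 9 connexin genes, with squares for the 5 described genes and circles for the 4 others. Black marks genes called at an adjusted p under 0.05, which are Gja4 (3.49) and Gjc1 (2.63), and gray marks those not called.

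The mRNAs of 14 proteins that anchor, modify or turn over connexins were all tested, and 10 of them were not called. The calls were 2 higher and 2 lower, beside 9.88% and 8.21% of all genes tested. The median log2 fold change was -0.04 against 0.02 for all genes, and calls in both directions can leave a median near 0. The list as a whole was not tested against the background. Both mRNAs that rose encode proteins of the membrane and its actin cortex. Cav1, the main coat protein of endothelial caveolae, rose from 21.1 ± 7.57 to 150 ± 47.5 CPM (SD, 4 libraries each), which is 2.82 on the log2 scale (SE 0.30, edgeR adjusted p = 0.000278). Dbn1, the actin-binding protein drebrin, which holds Cx43 at the cell border, rose from 3.98 ± 2.46 to 29.5 ± 12.9 CPM, or 2.89 on the log2 scale (SE 0.45, edgeR adjusted p = 0.00134). The 2 that fell are an epithelial adhesion gene and a kinase gene.

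Cdh1, which encodes E-cadherin, fell from 529 ± 70.4 to 208 ± 50.3 CPM (SD, 4 libraries each), a change of -1.34 on the log2 scale (SE 0.18, edgeR adjusted p = 0.000609). Src, a kinase that closes Cx43 channels by phosphorylation, was lower, at -0.91 (SE 0.17, edgeR adjusted p = 0.00310). The scaffold Tjp1, which binds the tail of Cx43, stood at 214 ± 18.7 CPM in QZ1-hi and 212 ± 22.6 CPM in QZ1-lo (log2 fold change 0.01, SE 0.12, adjusted p = 0.969, edgeR). Ctnnb1, the catenin that links cadherins to the cortex, had a log2 fold change of -0.08 (SE 0.10). The kinase genes Prkca, Prkcd, Csnk1d and Mapk3 and the turnover genes Nedd4 and Ubqln4 were not called, with log2 fold changes from -0.48 for Ubqln4 (adjusted p = 0.0594, edgeR) to 0.27 for Nedd4. Cnst, a carrier of connexins to the membrane (-0.24, SE 0.18), and Cdh2, which encodes N-cadherin (1.67, SE 1.07, with 100 reads in all), were not called either. Scaling by library size only moved the median of all genes tested to -0.44 and the calls among the partners to 2 higher and 4 lower.

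Markers of several cell types also differed between the populations, some higher and some lower in QZ1-hi. All 6 endothelial markers were called higher, and their summed CPM was 597 to 1506 in QZ1-hi and 37.0 to 198 in QZ1-lo. Of the 8 arterial genes 6 were called higher, as were 3 of 4 lymphatic, 2 of 6 pericyte, 3 of 6 smooth muscle and 5 of 6 fibroblast markers. Mural and stromal sums did not overlap between the populations. The summed CPM was 44.6 to 70.8 against 9.78 to 27 for the pericyte list, 50.5 to 98.3 against 13.5 to 29.2 for the smooth muscle list and 921 to 1850 against 26.6 to 218 for the fibroblast list. In the mesothelial list 4 genes were called higher and 1 lower. Epithelium moved in both directions, with 1 of 8 alveolar markers called higher (Sftpc) and 4 lower, while 5 of the 6 airway markers were tested and all 5 were called lower. The 6 leukocyte markers were present although the sort gated on CD45 and CD11b, and none passed the threshold, with 3 estimates above and 3 below 0 and unadjusted p from 0.100 to 0.849 (edgeR). Of the 6 erythroid and platelet markers, the platelet genes Pf4 and Ppbp were called higher (1.51 and 2.51 on the log2 scale). The 4 erythroid genes were not called, with log2 fold changes from -1.63 for Hba-a1 to -1.49 for Alas2 and adjusted p from 0.120 to 0.200 (edgeR), and the median of the list was -1.54.

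The libraries at the edge of their population for the connexins were QZ1-lo library 3 and QZ1-hi library 4. They were also the highest and the lowest of their populations for the endothelial, arterial and alveolar epithelial lists. The arterial means of these libraries were 3.07 and 4.61, and the alveolar means 7.81 and 7.19. For the other lists this held in part or not at all, so the pattern is not particular to endothelial genes. QZ1-lo library 3 had the highest mean log2 CPM of its population for the endothelial markers (4.52, the population mean being 3.15 ± 1.00, SD, n = 4) and for the pericyte markers (1.07), and had the highest Gja4, Gja5 and Gjc1 of the QZ1-lo libraries. QZ1-hi library 4 had the lowest endothelial mean of its population (6.14, with QZ1-hi library 2 close to it at 6.16) and the lowest level of all 5 connexins. It also had the lowest smooth muscle mean (1.90). The lowest pericyte mean was that of QZ1-hi library 2 (2.34, with 2.36 in library 4), which had the highest Gjc1 of QZ1-hi. The fibroblast mean was lowest in QZ1-hi library 1 (5.67) and, among QZ1-lo libraries, highest in library 3 (3.98). Within QZ1-lo the smooth muscle mean was highest in library 2 (1.59). Total counts ran from 18380918 to 26847938, of which mitochondrial genes and ribosomal RNA took 43.7% to 65.6% in QZ1-hi and 34.0% to 53.2% in QZ1-lo, the highest share being that of QZ1-hi library 4. The part of the cell type make-up and of the RNA composition in the connexin differences was not tested.

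Ratios within a library compare each connexin with markers of a cell type it is known from. The log2 ratio of Gja4 to the mean of the 6 endothelial markers was -2.19, -1.92, -2.62 and -2.88 in QZ1-hi and -1.93, -2.05, -2.68 and -2.76 in QZ1-lo. The ranges nearly coincide, with means of -2.40 ± 0.43 and -2.36 ± 0.43 (SD, n = 4 each, exact permutation test, two-sided p = 0.83). The difference of the means was -0.05, and it lay between -0.21 and 0.11 when each library was left out. A high p-value from 4 libraries against 4 does not show that the ratios are equal. The part of endothelial cell content in the log2 fold change of 3.49 for Gja4 was not tested. For Gja5 the mean ratio to the same markers was -3.84 ± 0.31 in QZ1-hi against -3.06 ± 1.21 (exact permutation test, two-sided p = 0.257), and for Gja4 to Gja5 it was 1.44 ± 0.17 and 0.70 ± 1.02 (exact permutation test, two-sided p = 0.286). Gja5 had 2 to 105 reads per QZ1-lo library.

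Gjc1 relative to the 6 pericyte markers averaged 0.46 ± 0.45 on the log2 scale in QZ1-hi and -0.83 ± 1.44 in QZ1-lo (SD, n = 4 each, exact permutation test, two-sided p = 0.114). Gjb2 relative to the 8 alveolar markers stood at -5.27 ± 0.43 and -4.99 ± 0.53 (exact permutation test, two-sided p = 0.429). The ratio whose populations did not overlap was that of Gja1 to the 6 fibroblast markers, at 0.08 ± 0.74 in QZ1-hi and 4.17 ± 1.47 in QZ1-lo. The fibroblast markers were far higher in QZ1-hi while Gja1 was not. Its two-sided exact permutation p was 0.0286, the smallest that 4 libraries against 4 allow, and 0.171 after adjustment over the 6 ratios. No ratio passed after adjustment.

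**Figure D4:**
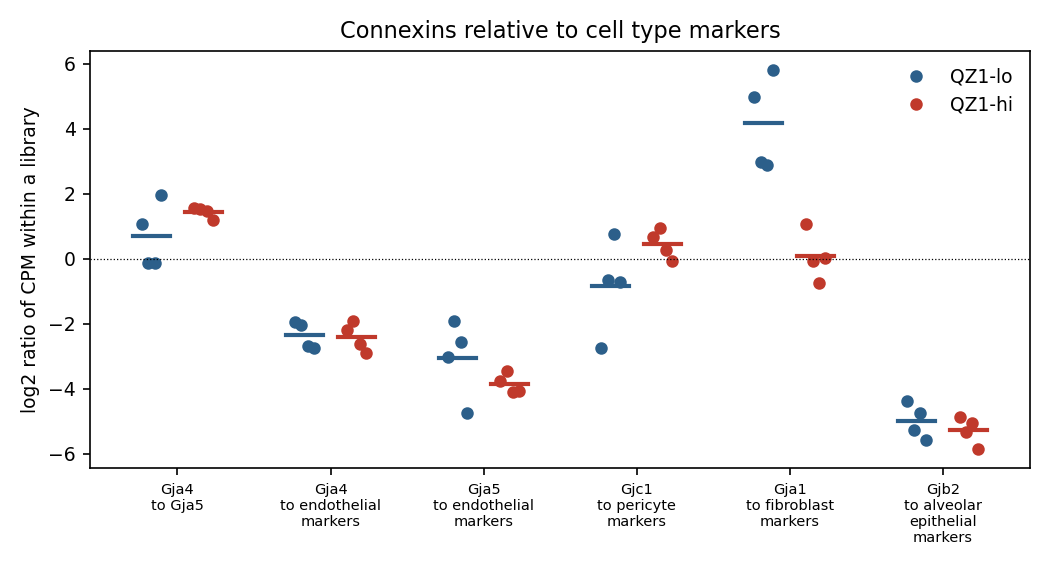
Log2 ratio within each library of a connexin's CPM to the geometric mean CPM of a cell type's markers (or of Gja4 to Gja5), with 1 point per library in QZ1-lo (blue) and QZ1-hi (red) and a bar at the mean of 4 libraries. Gja4 lies at nearly the same mean distance from the endothelial markers in both populations (-2.36 and -2.40), and the Gja1 to fibroblast ratio is the only one of the 6 without overlap.

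The genes most like each connexin were found by the root mean square difference of log2 CPM over the 8 libraries, after each gene was centered on its own mean. For Gja4 these were Emcn (0.23), which is also in the endothelial list, Jam2 (0.27) and Aqp1 (0.28), each more than 3 log2 units higher in QZ1-hi than in QZ1-lo. For Gja5 they were Tal1 (0.41), Pdgfrb (0.43), which is also in the pericyte list, and Fut10 (0.46), and for Gjc1 Olfml3 (0.28), Sh3tc2 (0.40) and Zfpm2 (0.49). The closest genes lay farther from Gja5 and Gjc1 than from Gja4. Among the connexins, Gja4 and Gja5 were 0.74 apart, Gja4 and Gjc1 0.91, and Gja5 and Gjc1 1.07. For Gja1 the closest genes were Pef1, Cish and Actn4 (0.10 each), and for Gjb2 D730005E14Rik (0.20), Map10 (0.23) and n-R5s105 (0.24), and Gja1 and Gjb2 were 0.35 apart. Genes that vary little lie close to many others, so these distances describe the 8 libraries and no test was made of them.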

How the data were processed

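Bulk RNA-seq libraries of 4 QZ1-hi and 4 QZ1-lo populations, grouped by the condition label, were analysed. Total RNA went through a SMARTer stranded kit and a NextSeq500 sequencer, and the authors assigned reads to genes in Rsubread. What they deposited are raw counts per Entrez Gene identifier, without normalization. The submitters' processing notes name mm10 and DESeq2, and the aligner, annotation and strand setting are not given in the sources used here. A symbol from RefSeq (GRCm38.p6) was matched to 25275 of 27179 identifiers.

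Counts were tested in R 4.3.3 with edgeR 4.0.16: filterByExpr (minimum count 10, minimum total 15), TMM scaling, and the quasi-likelihood test over 15583 genes with Benjamini-Hochberg adjustment at 0.05. Each SE was derived from the fold change and its F statistic (their ratio, with F under a root). Log2 CPM used a prior count of 2. Gene lengths are exonic unions of RefSeq-linked GENCODE transcripts. Ratios were compared by exact permutation over 70 assignments. Totals of 18380918 to 26847938 counts set the precision, and p-values measure only the spread between these libraries, which may be partly technical because the labels do not say how many mice they came from.

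The members, gene lists and tests were chosen with earlier results of these data known. Named genes were limited to these lists and the 3 genes nearest to each member in pattern. Alternatives were DESeq2 1.42.0, limma 3.58.1 (voom with sample weights), DESeq2 size factors, library size only, no filter, robust shrinkage, a minimum of 10 counts per library, mitochondrial genes and ribosomal RNA left out, each library left out, and for the ratios a prior count of 0.5. Some genes of these lists are not reported here, and list counts leave them out.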

Additional observations from a re-analysis of the deposited data

Results flagged for a closer look

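Of 58 groups of 4 libraries examined for a single library far from the other 3, 3 were flagged, where chance flags about 1 in 20. In QZ1-hi library 2, Gjb5 stood at 4.10 CPM, against 0.975 to 1.04 CPM in the other QZ1-hi libraries. In QZ1-lo library 1, Src stood at 72.9 CPM and Prkcd at 103 CPM, each above the other 3 QZ1-lo libraries. Without that library, Src was still called lower in QZ1-hi by edgeR, with a log2 fold change of -0.83 (adjusted p = 0.0112). None of the 5 connexin genes was flagged.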

How the results depend on the processing

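Gja4 was called higher, and Gja1 and Gjb2 were not called, under all 16 alternatives. No log2 fold change of the 5 genes changed sign. The number of the 5 genes called, 2, became 1 with at least 10 counts in every library, where Gja5 and Gjc1 were not tested, and 1 to 3 when each library was left out. It was 1 without QZ1-hi library 2 and without QZ1-lo library 2. It was 3 with DESeq2, limma-voom, library size only, no filter and without QZ1-lo library 3. Over all genes, calls were 2820 of 15583 in the main fit, and 2453 of 15891 and 2266 of 15833 without the first 2 libraries named. Of 15583 genes, 3418 were called with DESeq2, 2986 with limma-voom and 3391 with library size only. With no filter 2788 of 21271 were called, without QZ1-lo library 3 2500 of 15982, and with at least 10 counts 2504 of 13185. Gja5 was called in 6 of its 15 alternatives (adjusted p from 0.0115 to 0.144 over all 15), among them library size only (1.81) and no filter (2.17). Gjc1 lost its call in 3 of 15, each time with a library left out (adjusted p from 0.000651 to 0.0656 over all 15). Calls among the partners went from 4 to 6 with library size only, where the calls over all genes were 882 higher and 2509 lower against 1540 and 1280 with TMM and the cause was not tested. With a prior count of 0.5 every ratio kept its side of the threshold, and the Gja4 to endothelial difference, -0.05, lay between -0.21 and 0.11 when each library was left out. No paired analysis was possible because the labels give no replicate numbers that tie libraries of the populations to each other. Low counts limit Gja5 and Gjc1 in QZ1-lo, where they had 189 and 139 reads in all.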
